A study of Mus musculus with 123 samples.

Results

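Transcripts of 10 genes of the Nodal pathway were followed in single mouse embryos that lacked Oct4 or Sox2. The genes were picked by name from the 29022 genes of the unique molecular identifier (UMI) count table: the ligands Nodal and Gdf3, the antagonists Lefty1 and Lefty2, the co-receptor Tdgf1 (Cripto), the type II receptor Acvr2b, the convertases Furin and Pcsk6, the transcription factor Foxh1 and the inhibitory Smad gene Smad7. The rule uses names alone, but the list was drawn up with earlier results of these data known, so the counts of its genes below are a description. Of these 10 genes, 7 passed the detection filter, which asked for at least 1 UMI in at least 0.5 of the embryos of a stage, and were tested. Nodal, Lefty2 and Foxh1 were too scarce for the filter, and were described from their UMI counts and tested only with the filter left off.

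Nodal is a ligand of the TGF-beta superfamily that is made as a precursor and cleaved by the proprotein convertases Furin and Pcsk6 (PACE4). It signals through activin receptors together with the co-receptor Cripto, and the activated Smads act with Foxh1 on target genes that include Nodal itself and the antagonists Lefty1 and Lefty2. Gdf3 is a related ligand known for its expression in pluripotent cells, and Smad7 opposes signalling at the receptor. In the mouse embryo the pathway is best known for keeping the epiblast pluripotent and patterning it around implantation.

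The series held single embryos in 16 groups, 68 of an Oct4 line and 55 of a Sox2 line, all on the labelled strain B6C3F1. KO embryos had no functional copy from either parent: the mothers were flox/flox for Pou5f1 (the gene of Oct4) or Sox2 and carried Zp3-Cre, which acts in the oocyte, and the KO embryos inherited a reporter allele (Pou5f1 mKO2 or Sox2 EGFP) from heterozygous fathers. Ctrl embryos came from the same matings with an intact paternal allele, so Ctrl and KO share the loss of the maternal allele. A further control is labelled Ctrl_MWT, abbreviated here as MWT. The labels do not spell out MWT. The study writes maternal-WT for an intact maternal allele and compared its Ctrl embryos with wildtype ones. Each line was sampled as whole morulae (E2.75) and as inner cell masses (ICMs), the early ones at E3.75 and the late ones at E4.5. ICMs were taken by immunosurgery from embryos collected as morulae and cultured in KSOM with the MEK inhibitor PD0325901 (1 uM), so stage, culture and isolation change together between morulae and ICMs. Ctrl and KO had 8 embryos in every group. The Oct4 MWT groups had 7 morulae, 5 early ICMs and 8 late ICMs, and the only Sox2 MWT group had 7 early ICMs. The labels of Oct4 MWT ICMs conflict on the stage between title and source name, and the former was followed: the early ones carry a morula source name and no PD0325901 label, and the late ones carry an early ICM source name, so the days and culture given above do not cover them by their own labels.

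Depth was 525755 to 1344035 UMIs per embryo (median 897407). Levels below are CPM, UMIs of a gene scaled by the total UMIs of its embryo to counts per 1000000. The labels were checked on the targeted genes. Pou5f1 reached at most 4.73 CPM in any Oct4-KO embryo and was 13.4 to 93.6 CPM in the Oct4 Ctrl embryos. Sox2 overlapped between Sox2-KO (0 to 3.32 CPM) and Ctrl (2.91 to 34.2 CPM) morulae, but not in early ICMs (7.74 to 36.4 CPM against 72.6 to 194 CPM) or late ICMs (8.09 to 29.3 CPM against 94.2 to 299 CPM). Markers of other cell types moved with the genotype. The summed level of 9 trophectoderm markers in late ICMs was 1936 to 5180 CPM in Oct4-KO and 401 to 1710 CPM in Ctrl, and in Sox2 early ICMs it was 908 to 2426 CPM in KO and 111 to 565 CPM in Ctrl. All 9 had UMIs in each of these groups. The same sum overlapped between KO and Ctrl in Oct4 early ICMs and in Sox2 late ICMs. The sum of 7 epiblast markers, which include Tdgf1, was 346 to 847 CPM in Oct4-KO late ICMs and 2144 to 3273 CPM in Ctrl. For Sox2 late ICMs it was 1133 to 1712 CPM in KO and 2255 to 3893 CPM in Ctrl. In early ICMs it was 891 to 1347 CPM in Oct4-KO and 1414 to 2216 CPM in Ctrl, and it overlapped by edge values in the Sox2 line (1013 to 1433 CPM in KO, 1428 to 3450 CPM in Ctrl). Tdgf1 alone had a median of 14.7 CPM in Oct4-KO early ICMs and 319 CPM in Ctrl. The gap between the Oct4 sums is narrower than that, so it cannot be read apart from Tdgf1. Of the 7 epiblast markers, 6 were called lower in Oct4-KO early ICMs. Sums without Tdgf1 were not taken. Of 9 primitive endoderm markers 7 were tested. In Oct4-KO late ICMs 4 of them were called lower (Sox17 -6.57, Gata4 -3.63, Pdgfra -2.43 and Lama1 -1.40 on the log2 scale) and Gata6 higher (1.25), while the summed level of all 9 overlapped (463 to 758 CPM in KO, 232 to 1318 CPM in Ctrl). The number called was 2 lower in Oct4-KO early ICMs, 1 higher in Oct4-KO morulae and 1 lower in Sox2-KO late ICMs. The part of these marker levels in the results below was not tested. In samples of this kind, fewer cells of a type and less RNA per cell cannot be told apart.

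The levels first changed with stage in Ctrl embryos. Gdf3, Tdgf1 and Pcsk6 rose from morula to early ICM in both lines and Smad7 fell. Gdf3 rose by 2.65 ± 0.33 on the log2 scale in the Oct4 line (standard error of the fit, 8 embryos per group; edgeR quasi-likelihood test with Benjamini-Hochberg adjustment over all genes, adjusted p = 8.19e-11) and by 2.22 ± 0.30 in the Sox2 line (adjusted p = 5.47e-10 by the edgeR test). Tdgf1 rose by 2.60 ± 0.30 and 2.69 ± 0.30, and Pcsk6 by 1.91 ± 0.22 and 1.35 ± 0.22, in the Oct4 and Sox2 lines respectively. Smad7 fell by 1.57 on the log2 scale in the Oct4 line and by 1.97 in the Sox2 line. A gene was called when the adjusted p was below 0.05 and the change at least 1 on the log2 scale. By this rule 5 of the 7 tested genes were called between morula and early ICM in the Oct4 line, with Lefty1 as the fifth, and 4 in the Sox2 line. Of all genes tested, 29.0% and 31.9% were called there. The fall of Lefty1 in the Oct4 line rested on 10 UMIs in morulae against 1 in early ICMs, and its call (adjusted p = 0.0487 by the edgeR test) was lost under 5 of 7 other settings. From early to late ICM Gdf3 was the 1 gene of the 7 tested to be called, in the Oct4 line, with a rise of 1.29 ± 0.27 (adjusted p = 5.96e-05 by the edgeR test; 15.6% of all genes called). In the Sox2 line edgeR and DESeq2 called 0 of the 7 genes tested in that step, where 2.90% of all genes were called by edgeR and 5 of the 7 had an unadjusted p below 0.05. Gdf3 gave 0.64 ± 0.26 there (adjusted p = 0.12 by the edgeR test). With the detection filter left off, the edgeR test also called Nodal in this step in both lines (adjusted p = 0.0336 in the Oct4 line and 0.0240 in the Sox2 line) and Lefty2 in the Sox2 line (adjusted p = 0.00120). These calls rested on few UMIs. Nodal had 5 UMIs in late against 0 in early ICMs of the Oct4 line, 3 of them in embryo 2-9, and 23 against 3 in the Sox2 line, 12 of them in embryo 2-6. By fits added after the data were seen, the Nodal call in the Oct4 line was lost in 4 of 16 fits with 1 embryo left out (late embryos 2-9, 1-2 and 1-9 and early embryo 8), with an adjusted p of 0.229 by the edgeR test without embryo 2-9. It was lost in 5 of 16 such fits in the Sox2 line (late embryos 2-6 and 1-5 and early embryos 2, 4 and 7), with an adjusted p of 0.264 by the edgeR test without embryo 2-6. Lefty2 (54 against 3 UMIs) kept its call in all 16 such fits, with a highest adjusted p of 0.0264 by the edgeR test, without embryo 2-1.

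Gdf3 (ENSMUSG00000030117) had the lowest log2 fold change of the 7 tested genes at each stage without Oct4. The gene lies on chromosome 6 at 122605403 to 122610087 of the mm10 build, on the minus strand, and had 3950 UMIs in 106 embryos. In Oct4 Ctrl embryos its level was 0 to 12.4 CPM in morulae (median 8.13), 12.2 to 87.4 CPM in early ICMs (median 48.2) and 60.1 to 167 CPM in late ICMs (median 105). In Oct4-KO embryos the highest value was 1.08 CPM in morulae, 2.36 CPM in early ICMs and 4.68 CPM in late ICMs. Every Oct4-KO ICM lay below the lowest Ctrl ICM of its stage, while 1 of 8 Ctrl morulae also had no UMI and 2 of 8 KO morulae had 1. The KO level was 3.42% of Ctrl in morulae (2 UMIs against 57, exact 95% Poisson interval 0.405 to 12.9%), 0.859% in early ICMs (3 against 342 UMIs, 0.176 to 2.53%) and 0.858% in late ICMs (6 against 623 UMIs, 0.313 to 1.88%); these intervals cover counting error only. The log2 fold changes were -4.22 ± 0.73, -6.38 ± 0.53 and -6.59 ± 0.46, with adjusted p = 9.68e-05, 1.31e-17 and 4.69e-22 by the edgeR test. The morula call was lost among the 3 same-numbered embryos per group (-4.77, adjusted p = 0.191 by the edgeR test). The effect in early ICMs did not differ detectably from that in morulae (log2 difference -2.15, adjusted p = 0.642 by the edgeR test), where the KO counts were near 0.

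Loss of Sox2 left part of Gdf3, and only in ICMs was a difference called. In morulae the level was 5.55 to 17.4 CPM in Sox2-KO (median 12.5) and 7.14 to 25.0 CPM in Ctrl (median 13.9), a KO level of 99.8% of Ctrl (95% interval 76.3 to 131%). In early ICMs Sox2-KO embryos held 4.75 to 41.2 CPM (median 13.9) and Ctrl 22.8 to 89.4 CPM (median 68.9). In late ICMs the values were 7.05 to 58.7 CPM (median 25.3) and 75.3 to 131 CPM (median 103). The groups overlapped in early ICMs, where 7 of 8 KO embryos lay below the lowest Ctrl embryo, and did not overlap in late ICMs. The fold changes were -1.94 ± 0.30 and -1.85 ± 0.28 on the log2 scale (adjusted p = 1.05e-06 and 3.25e-07 by the edgeR test), leaving 25.0% and 25.7% of the Ctrl level. The Sox2-KO effect differed between early ICMs and morulae by -1.94 ± 0.45 on the log2 scale (adjusted p = 0.0118 by the edgeR test), a call that was lost when all embryos were thinned to 525755 UMIs (-1.62, adjusted p = 0.163 by the edgeR test). Gdf3 fell more without Oct4 than without Sox2: the difference between both effects was -4.43 in early ICMs (adjusted p = 3.20e-06) and -4.73 in late ICMs (adjusted p = 5.98e-09), both by the edgeR test of the interaction. In Oct4-KO early and late ICMs Sox2 was at 121% and 30.9% of Ctrl. In Sox2-KO early and late ICMs Pou5f1 was at 90.7% and 99.4%. The targeted transcript kept 22.1% and 9.01% of Ctrl in Sox2-KO early and late ICMs, against 1.25% and 0.377% in Oct4-KO. The part of these levels in the differences for Gdf3, Tdgf1 and Pcsk6 was not tested.

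**Figure D1:**
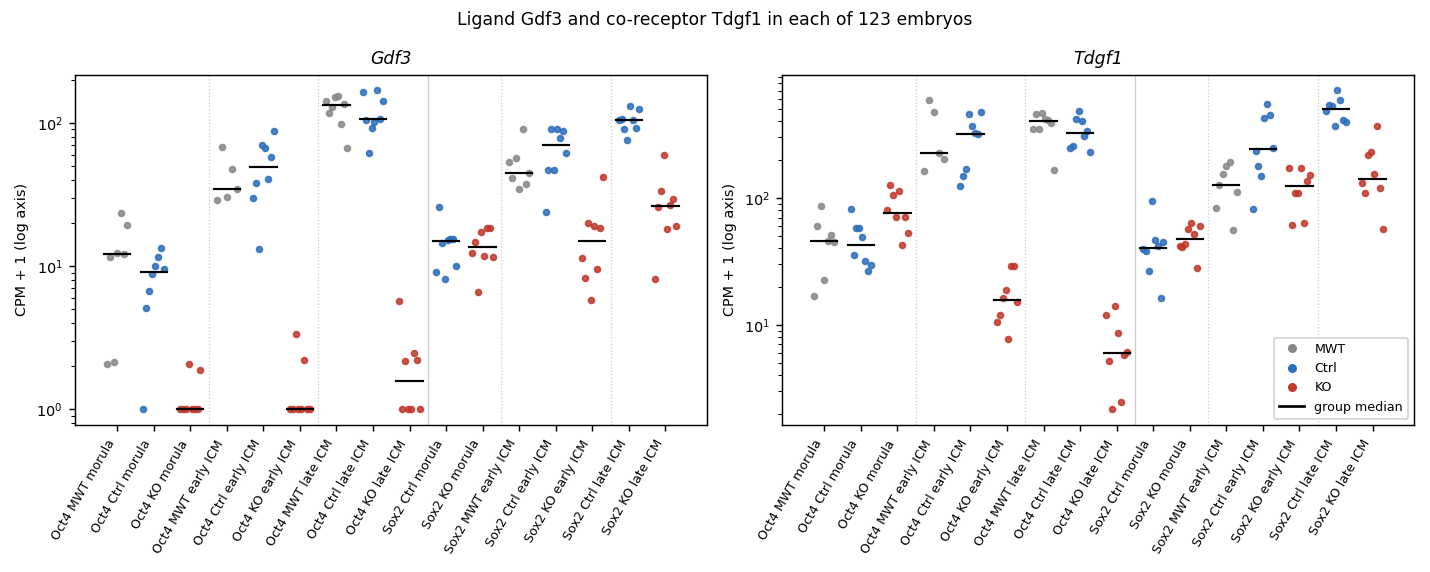
Levels of Gdf3 and Tdgf1 as CPM + 1 on a log axis, 1 point per embryo, in the 16 groups of MWT, Ctrl and KO embryos, with the median of each group as a line. Oct4-KO ICMs lie below all Ctrl ICMs for both genes, and the Sox2-KO ICMs lie higher than the Oct4-KO ICMs, with a Gdf3 median of 25.3 CPM in late ICMs against 103 CPM in Ctrl.

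In the MWT embryos Gdf3 was near the Ctrl level. Medians were 11.2 CPM in morulae, 33.3 CPM in early ICMs and 131 CPM in late ICMs of the Oct4 line, and 44.0 CPM in early ICMs of the Sox2 line. None of the 4 MWT against Ctrl comparisons called Gdf3. With MWT embryos in place of Ctrl, a setting added after the data were seen, Gdf3 kept its call in Oct4-KO morulae (-4.85), early ICMs (-6.06), late ICMs (-6.60) and, for the other line, early ICMs without Sox2 (-1.58). The comparisons against Ctrl and against MWT use the same KO embryos. Ordered by median over all 16 groups, the ranges of neighbouring groups overlapped in each of the 15 pairs for every one of the 10 genes.

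Genes around Gdf3 moved in both directions. Within 150 kb of the gene, 8 of 12 annotated neighbours passed the detection filter. Dppa3, a maternal-effect gene 16.3 kb away, changed by -1.01 ± 0.17 on the log2 scale in Oct4-KO late ICMs (adjusted p = 4.82e-07 by the edgeR test). It was not called in the other 5 KO comparisons. Its change of -0.62 ± 0.16 in Oct4-KO early ICMs (adjusted p = 0.00289 by the edgeR test) lay under the fold minimum. Nanog, a core pluripotency factor 97.4 kb away, changed by -1.19 ± 0.24 in Oct4-KO late ICMs (adjusted p = 2.47e-05 by the edgeR test) and was likewise called nowhere else. Slc2a3, a glucose transporter gene 117.7 kb away, rose in KO ICMs of both lines, by 2.00 and 2.12 on the log2 scale in early and late Oct4-KO ICMs and by 1.79 and 2.05 in Sox2-KO ICMs. Mfap5 rose in Oct4-KO late ICMs (2.04), and Rimklb fell in late ICMs of both lines (-1.41 in Oct4-KO, -1.35 in Sox2-KO). The remaining neighbours, Gm8430, Gm10420 and Gm10224, were called in no KO comparison.

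**Figure D2:**
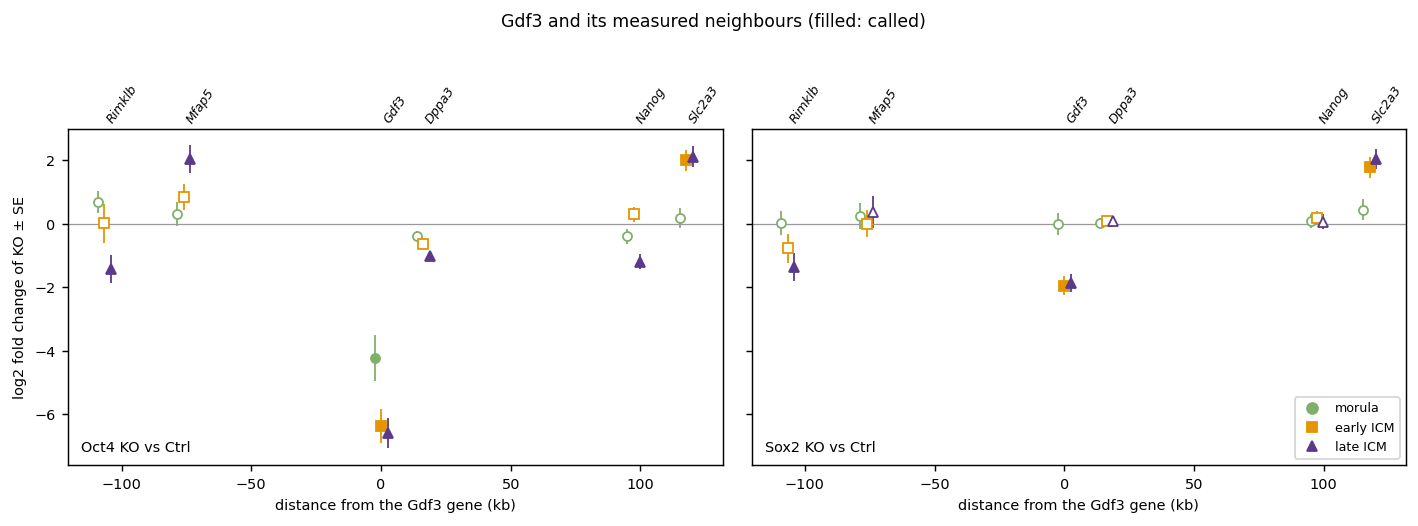
Log2 fold change of KO over Ctrl with its standard error for Gdf3 and the 5 tested genes within 150 kb that have no Gm name, against distance from Gdf3 in kb, at 3 stages of both lines; filled points were called. Gdf3 lies at -6.38 and -6.59 in the Oct4 line, apart from its neighbours, and Slc2a3 is filled and above 0 in early and late ICMs of both lines.

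Tdgf1 (ENSMUSG00000032494), which encodes the co-receptor Cripto, lies on chromosome 9 at 110939603 to 110946158, on the minus strand. It had UMIs in every embryo (17925 in total). It has 2 annotated pseudogenes with similar sequence, so a part of its reads could be shared with them. The 250 bases before the RefSeq start of Tdgf1 (chr9:110946159-110946408, GRCm38.p6, minus strand) and of Nodal (chr10:61417722-61417971, plus strand) are given to show a ligand and co-receptor pair that was lower together in Sox2-KO late ICMs. Both are printed 5′ to 3′ in lower case, with no capitals because no searched motif was found.
Tdgf1: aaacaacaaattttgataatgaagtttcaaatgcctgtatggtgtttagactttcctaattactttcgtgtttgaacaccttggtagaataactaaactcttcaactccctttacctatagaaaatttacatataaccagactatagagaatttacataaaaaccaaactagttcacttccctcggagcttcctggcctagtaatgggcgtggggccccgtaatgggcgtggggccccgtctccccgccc
Nodal: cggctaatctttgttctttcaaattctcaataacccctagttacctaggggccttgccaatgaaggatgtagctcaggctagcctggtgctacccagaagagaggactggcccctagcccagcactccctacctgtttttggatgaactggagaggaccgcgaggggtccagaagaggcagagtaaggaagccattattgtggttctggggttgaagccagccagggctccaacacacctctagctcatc
The Tdgf1 stretch is 42.0% G and C and the Nodal stretch 53.2%, against 81.2% before the RefSeq start of Pcsk6. RefSeq promoter windows of 300 bases, 250 before and 50 after the start, were at hand for Nodal, Tdgf1, Acvr2b, Furin and Pcsk6, 5 of the 10 genes, in 6 windows. The motifs were searched on both strands: the octamer ATGCAAAT, the Sox motif CATTGTT, the Foxh1 motif AATCCACA and the Smad motif GTCTAGAC. None was in the 6 windows; over all 32851 windows they were in 1.74%, 3.78%, 0.855% and 0.213%. These letters are absent from these windows, which says nothing of binding elsewhere.

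Tdgf1 followed Gdf3 in ICMs but not in morulae. In Oct4-KO morulae its level was 41.4 to 125 CPM (median 74.8) against 25.8 to 80.6 CPM in Ctrl (median 41.4), with a log2 fold change of 0.89 ± 0.30 that was not called (adjusted p = 0.132 by the edgeR test). In early ICMs the level was 6.67 to 28.2 CPM in Oct4-KO (median 14.7) and 123.1 to 476 CPM in Ctrl (median 319). In late ICMs it was 1.16 to 13.0 CPM (median 4.96) and 230 to 485 CPM (median 322). KO and Ctrl did not overlap in either ICM stage, and the KO level was 5.36% of Ctrl in early ICMs (95% interval 4.39 to 6.48%) and 1.75% in late ICMs (1.21 to 2.44%). The fold changes were -4.11 ± 0.34 and -5.71 ± 0.40 on the log2 scale (adjusted p = 1.23e-17 and 6.29e-22 by the edgeR test). The Oct4-KO effect differed between early ICM and morula by -5.001 ± 0.46 (adjusted p = 2.37e-14 by the edgeR test of the interaction).

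Sox2-KO embryos kept more Tdgf1. The level was 60.3 to 170 CPM in early ICMs (median 122) against 80.9 to 547 CPM in Ctrl (median 240), and 56.1 to 368 CPM in late ICMs (median 141) against 364 to 701 CPM in Ctrl (median 505). The ranges of KO and Ctrl overlapped at both stages, in late ICMs only by the highest KO and the lowest Ctrl embryo. The fold changes were -1.19 ± 0.28 and -1.44 ± 0.28 on the log2 scale (adjusted p = 0.00259 and 5.61e-05 by the edgeR test). In early ICMs the call did not hold against the other control. MWT early ICMs of the Sox2 line had 54.96 to 190 CPM (median 126) and were themselves lower than Ctrl by -1.15 ± 0.30 (adjusted p = 0.00972 by the edgeR test), and KO against MWT gave -0.025 ± 0.30 (adjusted p = 0.973 by the edgeR test). Without Ctrl embryo 10 the KO change was -0.98, just under the fold minimum, and with limma on the rlog values it was -0.95. The early call was also lost among same-numbered embryos (-1.56, adjusted p = 0.0666 by the edgeR test). No MWT late ICMs of the Sox2 line were analysed here. The Oct4-KO effect minus the Sox2-KO effect was -2.92 ± 0.44 in early ICMs and -4.27 ± 0.50 in late ICMs (adjusted p = 6.02e-07 and 2.63e-10 by the edgeR test).

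The convertases differed from each other. Pcsk6 (ENSMUSG00000030513, chromosome 7, 65861734 to 66050386, plus strand) fell in Oct4-KO ICMs. Furin (ENSMUSG00000030530, chromosome 7, 80388585 to 80405436, minus strand) was not called in any KO comparison in the fit of all Ctrl and KO embryos. An alternative that called Furin in Sox2-KO early ICMs is given in the last section. Pcsk6 had 18.9 to 122 CPM in Oct4-KO early ICMs (median 59.9) against 121 to 320 CPM in Ctrl (median 213). In late ICMs it had 15.9 to 88.9 CPM (median 50.9) against 143 to 251 CPM (median 170). The early groups overlapped only by their edge values and the late groups did not overlap. The fold changes were -1.83 ± 0.22 and -1.68 ± 0.23 on the log2 scale (adjusted p = 2.24e-10 and 4.93e-09 by the edgeR test). Among same-numbered embryos the early change was -0.99, just under the fold minimum. In morulae Pcsk6 was at 35.4 to 65.0 CPM in Oct4-KO and 30.9 to 77.3 CPM in Ctrl (-0.060 ± 0.23), and the effect in early ICMs differed from that in morulae by -1.77 ± 0.32 (adjusted p = 0.000109 by the edgeR test). Sox2-KO ICMs kept 130 to 206 CPM in early ICMs (Ctrl 122 to 207 CPM) and 70.7 to 193 CPM in late ICMs (Ctrl 134 to 208 CPM), with fold changes of -0.13 ± 0.21 and -0.30 ± 0.21 that were not called. The Oct4-KO effect on Pcsk6 differed from the Sox2-KO effect by -1.71 ± 0.31 in early and -1.38 ± 0.32 in late ICMs (adjusted p = 3.99e-05 and 0.00154 by the edgeR test).

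Furin ran from 42.1 to 102 CPM in Oct4-KO late ICMs (median 63.3) and from 19.5 to 52.7 CPM in Ctrl (median 42.0). Its log2 fold change of 0.82 ± 0.24 had an adjusted p of 0.00498 by the edgeR test but lay under the fold minimum, as did 0.70 ± 0.23 in Sox2-KO early ICMs (adjusted p = 0.0488 by the edgeR test). Pcsk6 overlaps Gm45213 on its own strand and Gm20684 on the other, and Furin overlaps Gm44851 on the other strand. The strand setting of the counting is not given in the sources used here.

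**Figure D3:**
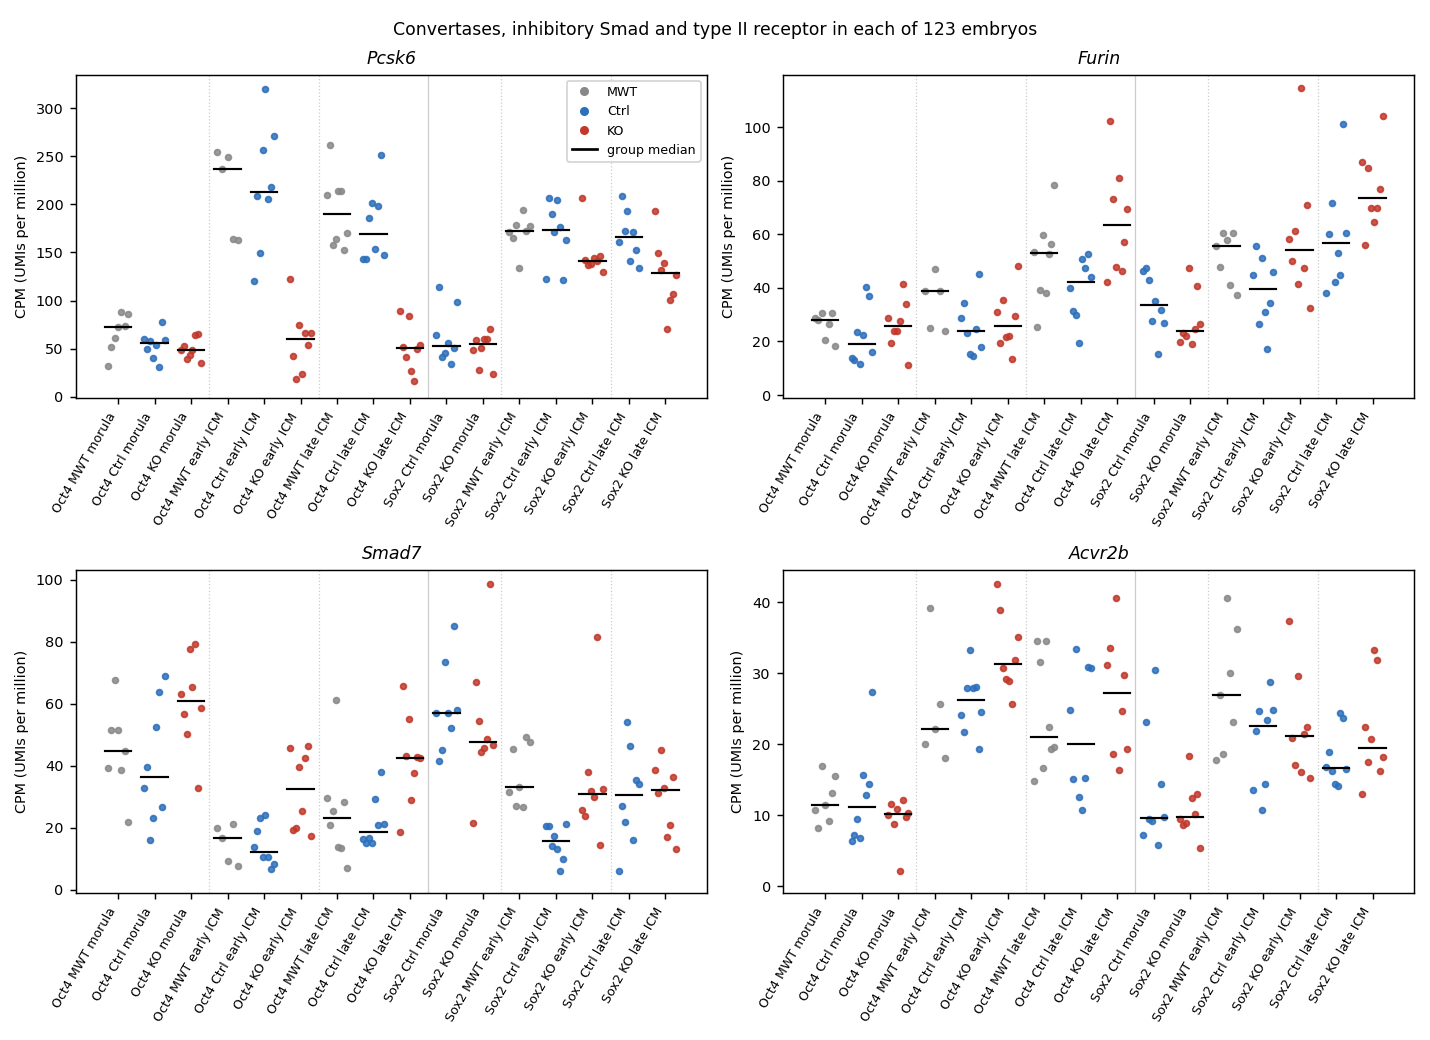
Levels of Pcsk6, Furin, Smad7 and Acvr2b in CPM on linear axes, 1 point per embryo, in the 16 groups of MWT, Ctrl and KO embryos, with group medians as lines. Pcsk6 is lower in Oct4-KO ICMs (medians 59.9 and 50.9 CPM) than in Ctrl (213 and 170 CPM), and the Acvr2b ranges of KO and Ctrl overlap at every stage.

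Acvr2b (ENSMUSG00000061393), a type II receptor for Nodal and activins on chromosome 9 at 119402118 to 119434995 (plus strand), was called in no KO comparison. Its medians were 10.2 CPM in Oct4-KO morulae (Ctrl 11.1), 31.3 CPM in early ICMs (Ctrl 26.2) and 27.2 CPM in late ICMs (Ctrl 19.99). The group medians of the Sox2 line were 9.75 CPM in KO and 9.59 CPM in Ctrl morulae, 21.1 and 22.6 CPM in early ICMs, and 19.5 and 16.6 CPM in late ICMs. The fold changes over the 6 KO comparisons ran from -0.33 ± 0.28 to 0.42 ± 0.25 on the log2 scale. The antisense gene Gm47320 lies opposite Acvr2b.

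Smad7 (ENSMUSG00000025880; chromosome 18, 75367529 to 75395935, plus strand), whose product blocks receptor-activated Smads, rose in Oct4-KO ICMs and, against Ctrl, in Sox2-KO early ICMs. Oct4-KO early ICMs had 17.6 to 46.5 CPM (median 32.6) against 6.80 to 24.3 CPM in Ctrl (median 12.2), and late ICMs had 18.7 to 65.7 CPM (median 42.7) against 15.04 to 38.2 CPM (median 18.8). The ranges overlapped at both stages. The log2 fold changes were 1.21 ± 0.31 and 1.06 ± 0.30 (adjusted p = 0.00225 and 0.00396 by the edgeR test). The early call was lost with limma on the rlog values (0.94, under the fold minimum) and among same-numbered embryos (adjusted p = 0.168 by the edgeR test). The late value was near the fold minimum and dropped under it without Ctrl embryo 1-3 (0.99), KO embryo 1-5 (0.91) or KO embryo 1-8 (0.97), with library totals as the only scaling (0.96), with limma on the rlog values (0.84) and against MWT (0.92). Sox2-KO early ICMs had 14.6 to 81.6 CPM (median 31.0) and Ctrl 6.15 to 21.3 CPM (median 15.8), a change of 1.23 ± 0.30 (adjusted p = 0.00411 by the edgeR test) that was 0.92 without KO embryo 11 and also 0.92 with limma on the rlog values. MWT early ICMs of the Sox2 line were also above Ctrl, at 26.7 to 49.5 CPM (median 33.4) with no overlap, by 1.27 ± 0.31 (adjusted p = 0.00529 by the edgeR test). Against MWT the Sox2-KO change of Smad7 was -0.028 ± 0.29 (adjusted p = 0.967 by the edgeR test). In Sox2 late ICMs KO had 13.2 to 45.3 CPM and Ctrl 5.98 to 54.3 CPM (0.05 ± 0.29), which was not called.

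The Sox2 MWT early ICMs also stood apart from Ctrl in the primitive endoderm markers and Pou5f1, but not in the epiblast markers. The summed level of 9 primitive endoderm markers was 960 to 1455 CPM in MWT and 197 to 869 CPM in Ctrl, with Foxa2 at 0 in both, and Pou5f1 was 97.7 to 133 CPM against 40.5 to 88.6 CPM. The sum of 7 epiblast markers overlapped, at 1184 to 1963 CPM in MWT and 1428 to 3450 CPM in Ctrl. Their part in the Tdgf1 and Smad7 results was not tested. Of all genes tested, 2.58% were called between MWT and Ctrl there. In the Oct4 line, edgeR and DESeq2 called 0 of the 7 tested genes between MWT and Ctrl morulae and 0 between early ICMs, with 0 below an unadjusted p of 0.05, where 0.0646% and 0.373% of all genes were called by edgeR. In Oct4 late ICMs, where 0.797% of all genes were called, Lefty1 was the 1 gene called (adjusted p = 0.0375 by the edgeR test). It had 17 UMIs in MWT and 0 in Ctrl. Against a floor of 3 UMIs over the Ctrl group, with the MWT count taken as exact, it was at least 5.70-fold higher. Of the 17 UMIs, 16 were in MWT embryo 11. Without that embryo 1 UMI was left, too few for a bound (adjusted p = 0.690 by the edgeR test), and leaving out any of 6 of the 8 Ctrl embryos singly also ended the call.

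Nodal, Lefty1, Lefty2 and Foxh1 were scarce. UMIs of Nodal, Lefty2 and Foxh1 came mostly from late ICMs of Ctrl and MWT embryos, and Lefty1 also had UMIs in morulae of every group. Nodal (ENSMUSG00000037171; chromosome 10, 61417972 to 61425338, plus strand) had 40 UMIs in 17 embryos. Lefty1 (ENSMUSG00000038793; chromosome 1, 180935022 to 180938400, plus strand) had 87 UMIs in 39 embryos and Lefty2 (ENSMUSG00000066652; chromosome 1, 180893108 to 180899103, plus strand) had 81 in 11. Both Lefty genes are similar neighbours, so some reads could be shared between them, which was not tested. In morulae, where Lefty1 had UMIs in every group, Lefty2 had 1 UMI in Sox2 Ctrl and none in the other groups. Foxh1 (ENSMUSG00000033837; chromosome 15, 76668225 to 76669948, minus strand) had 39 UMIs in 29 embryos.

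In Sox2 Ctrl late ICMs Nodal had 23 UMIs in 5 of 8 embryos: 12 in embryo 2-6, 6 in embryo 1-5, 2 each in embryos 2-1 and 2-4, and 1 in embryo 1-10. Lefty2 had 54 UMIs in the same group, 31 in embryo 2-1, 14 in embryo 2-6 and 9 in embryo 2-4. Lefty1 had 12 UMIs in embryo 2-4, 2 in embryo 2-6 and 1 in embryo 2-1. The 3 embryos with either Lefty gene thus held both, and held Nodal too. All 3 carry a 2 as the first number of their label, whose meaning is not given in the sources used here. In Sox2-KO late ICMs Nodal and Lefty2 had 0 UMIs in 8 embryos, which allows up to 0.463 CPM over the group. Against a floor of 3 UMIs over the KO group, Nodal was at least 7.22-fold lower and Lefty2 at least 16.9-fold lower than in Ctrl. These bounds rest largely on single embryos, by a check added after the data were seen: without Ctrl embryo 2-6 the bound for Nodal was 3.93-fold, and without Ctrl embryo 2-1 that for Lefty2 was 8.33-fold. Lefty1 had 5 UMIs in KO, 4 in embryo 2-6 and 1 in embryo 2-8 (log2 fold change -1.21 ± 0.82, adjusted p = 0.367 by the edgeR test).

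With the detection filter left off, the edgeR test called Nodal and Lefty2 in this comparison, and did not call Foxh1 (adjusted p = 0.0843) or Lefty1 (adjusted p = 0.507). Nodal gave an adjusted p of 0.000279 and Lefty2 one of 2.23e-05 by the edgeR test; their fitted fold changes depend on the prior count and are not read here. Both calls held when any 1 of the 16 embryos was left out, with a highest adjusted p of 0.00518 for Nodal and 0.000490 for Lefty2 by the edgeR test, and with the first number of the label as a block. In Oct4 late ICMs Nodal had 5 UMIs in 3 of 8 Ctrl embryos and 0 in KO, and was not called with the filter off (adjusted p = 0.0523 by the edgeR test). Of the 5 UMIs, 3 were in Ctrl embryo 2-9, and the 2 left without it are too few for a bound on the fold. In this comparison neither Lefty gene had a UMI in Ctrl or KO. The Oct4 MWT late ICMs had 5 Nodal UMIs in 3 of 8 embryos, and embryo 11 held 19 of 20 Lefty2 UMIs, 16 of 17 Lefty1 UMIs and 2 of the Nodal UMIs. Against MWT in place of Ctrl, the edgeR test called Lefty1 lower in late ICMs without Oct4 (adjusted p = 0.00201), a call that was lost without MWT embryo 11 (adjusted p = 0.410 by the edgeR test) and held without any other single embryo. Foxh1 was detected in 7 of 8 Sox2 Ctrl late ICMs (13 UMIs) and 2 of 8 Sox2-KO late ICMs (2 UMIs), a difference that was not called, and had 3 UMIs in Oct4 Ctrl and 1 in Oct4-KO late ICMs. In morulae of any group Foxh1 had no UMI.

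**Figure D4:**
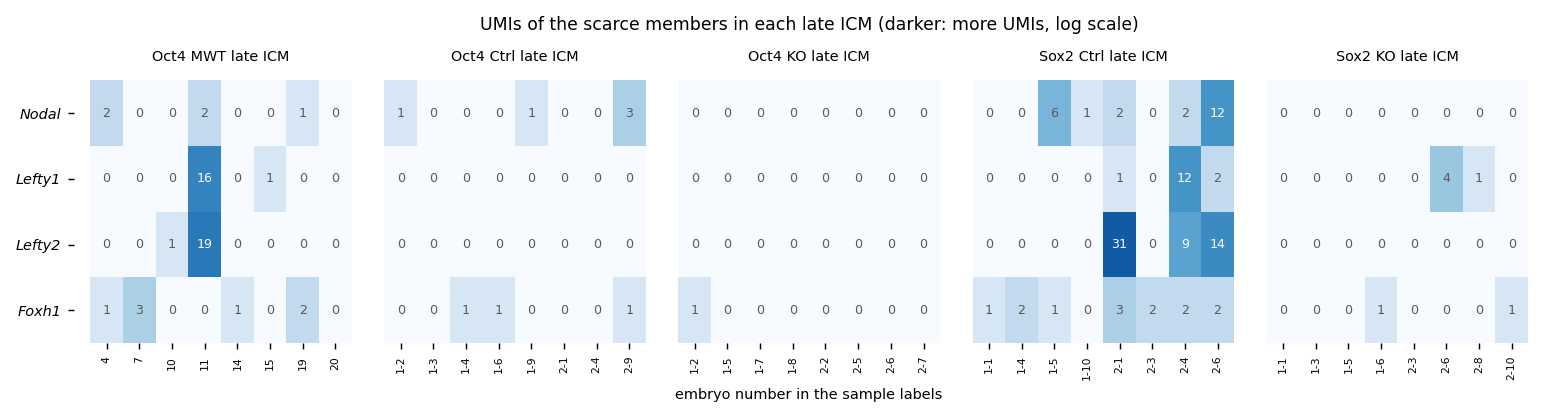
UMIs of Nodal, Lefty1, Lefty2 and Foxh1 (rows) in each of the 40 late ICMs, 1 column per embryo by its label number, grouped by line and genotype, darker for more UMIs. Lefty2 and Nodal UMIs sit in 3 and 5 of the 8 Sox2 Ctrl embryos and in none of the 8 Sox2-KO embryos, and Oct4 MWT embryo 11 stands out with 16 Lefty1 and 19 Lefty2 UMIs.

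Counted over the 7 tested genes, the calls can be set against those among all genes. In Oct4-KO morulae 1 gene was called lower (Gdf3) and 0 higher, where 0.626% of all 14053 genes tested were called lower and 0.178% higher. In Oct4-KO early ICMs 3 were called lower (Gdf3, Tdgf1, Pcsk6) and 1 higher (Smad7), against 6.11% lower and 4.77% higher among all genes. Oct4-KO late ICMs had the same 3 lower and the same 1 higher, against 8.85% and 9.25%. In Sox2-KO morulae edgeR and DESeq2 called 0 of the genes and 0 had an unadjusted p below 0.05, where 0.00712% of all genes were called lower, Sox2 itself, and 0% higher. In Sox2-KO early ICMs 2 were called lower (Gdf3, Tdgf1) and 1 higher (Smad7), against 1.69% and 1.57%, and in late ICMs 2 were called lower and 0 higher, against 3.61% and 3.34%. Between the KO effects in early ICM and morula, 2 genes differed in the Oct4 line (Tdgf1 and Pcsk6, with 3.29% of all genes) and 1 in the Sox2 line (Gdf3, with 0.882%). Between late and early ICM edgeR called 0 of the 7 tested genes in either line (3.11% of all genes in the Oct4 line, 0.0427% in the Sox2 line), 1 had an unadjusted p below 0.05 in each line, and DESeq2 called 1 in the Oct4 line and 0 in the Sox2 line. Between the Oct4-KO and the Sox2-KO effect, 3 genes differed in early ICMs and the same 3 in late ICMs (Gdf3, Tdgf1 and Pcsk6), where 5.52% and 6.30% of all genes did.

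**Figure D5:**
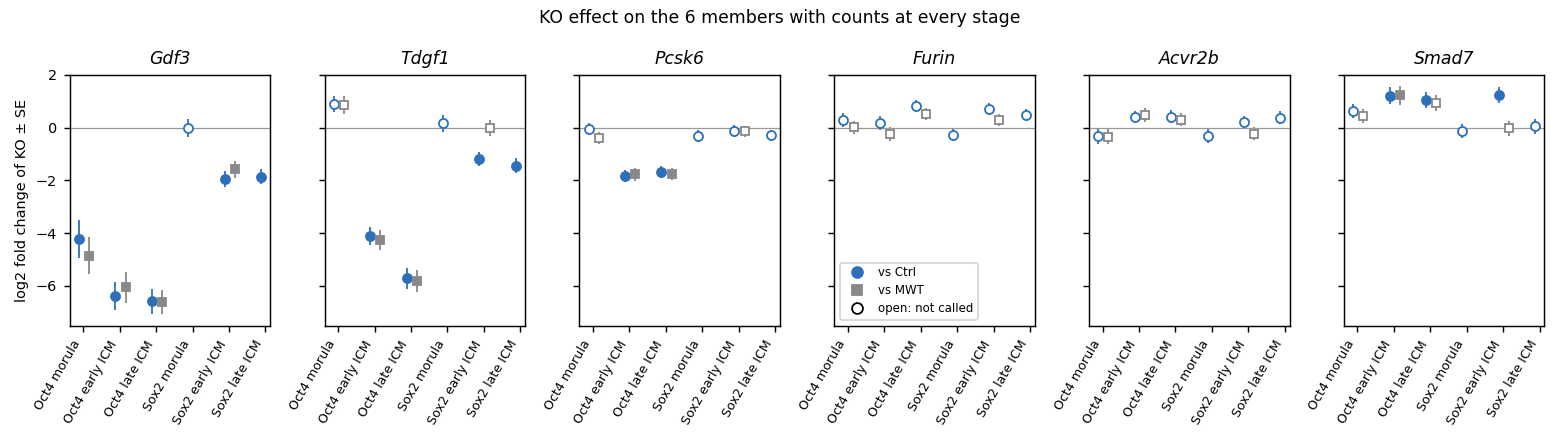
Log2 fold change with its standard error of KO over Ctrl (circles) and over MWT (squares) for the 6 tested genes other than Lefty1, at 3 stages in both lines; filled points were called. Gdf3 is called lower at every stage in the Oct4 line and only in ICMs in the Sox2 line, Tdgf1 is called lower in ICMs of both lines, and Pcsk6 only in Oct4-KO ICMs; against MWT, Tdgf1 and Smad7 in Sox2-KO early ICMs are open points near 0.

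A wider list of 37 other genes of Nodal and activin signalling had 35 in the table, and 27 passed the detection filter. Gdf1 and Cer1 were not analysed here. In Oct4-KO morulae 1 was called, Bambi, which encodes a decoy receptor (-1.46 ± 0.39 on the log2 scale, adjusted p = 0.0270 by the edgeR test), where 0.626% of all genes were called lower. In Oct4-KO early ICMs 2 were called higher and 5 lower, against 4.77% and 6.11% of all genes, with a list median of -0.011. Fstl3, which encodes an inhibitor that binds activin, rose by 2.18 ± 0.30, and the T-box target Eomes rose by 1.35 ± 0.33. The homeobox target Gsc (-2.86 ± 0.48), Bambi (-2.73 ± 0.38) and Pmepa1 (-1.77 ± 0.37), a feedback inhibitor of Smad signalling, fell. The other genes called lower were Ppm1a and Tgif2.

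In Oct4-KO late ICMs 4 of the wider list were called higher and 5 lower (median 0.018), against 9.25% and 8.85% of all genes. The co-receptor gene Cfc1 rose by 2.20 ± 0.55, Fstl3 by 2.17 ± 0.37 and Eomes by 1.97 ± 0.34, with Smurf1 as the fourth. Gsc changed by -4.43 ± 0.49, the activin subunit gene Inhbb by -3.83 and Pmepa1 by -1.68 ± 0.36, with Bambi and Tgif1 as the others called lower. Eomes is also made in trophectoderm, whose 9 markers were all called higher in this comparison. In Sox2-KO morulae edgeR and DESeq2 called 0 of the 27, and 0 had an unadjusted p below 0.05. In Sox2-KO early ICMs Eomes was the 1 gene called higher (1.56 ± 0.38), and Pmepa1 (-2.25 ± 0.36), the co-repressor gene Tgif1 (-1.26 ± 0.19) and the phosphatase gene Ppm1a (-1.21 ± 0.21) were called lower (list median -0.025), against 1.57% of all genes higher and 1.69% lower, while 4 of 9 trophectoderm markers were called higher. In Sox2-KO late ICMs Fstl3 (1.85 ± 0.33) and Eomes (1.19 ± 0.38) were called higher and Pmepa1 (-2.27 ± 0.37), Inhbb (-2.15 ± 0.76) and Tgif1 (-1.31 ± 0.18) lower (list median -0.035), against 3.34% and 3.61% of all genes, with 3 of 9 trophectoderm markers higher.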

How the data were processed

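Single-embryo RNA was turned into UMI libraries primed from the poly(A) tail. Per the labels and the study's methods, the authors took UMIs from the reads with UMI-tools, trimmed with Cutadapt, aligned with TopHat2 to mm10, assigned reads to GENCODE gene models with featureCounts, and counted unique molecules, corrected for losses, with TRUmiCount. The deposited UMI table holds whole-number counts per gene, not normalized. The authors also deposited rlog values, on a log2 scale from DESeq2, for 15747 genes, used only as an alternative. Per-gene identifiers matched the vM21 GENCODE annotation for 28982 of 29022 genes. No column belonged to other samples.

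Counts were tested with edgeR 4.0.16 in R 4.3.3 (quasi-likelihood test, TMM scaling), with 14053 genes in 1 fit of 96 Ctrl and KO embryos and 13923 in a fit of all embryos that adds MWT. The filter kept genes with a UMI in at least 0.5 of the embryos of a stage. P-values were adjusted by Benjamini-Hochberg over all genes tested, and genes were called at an adjusted p under 0.05 and a log2 fold change of at least 1. CPM used UMI totals without TMM. The ± values are standard errors from the F statistic. Embryos are separate samples, and p-values test group differences against the modelled spread between embryos. A small p-value does not mean that every embryo of a group moved. The litter of an embryo is not given in the labels used here. Alternatives used DESeq2 1.42.0, limma 3.58.1 on rlog values, other size factors, no filter, no fold minimum, thinning to 525755 UMIs, the compared groups alone, embryos left out, label sets and shared embryo numbers. Embryos shared numbers between KO and Ctrl (0 to 4 per comparison), but correlations of same-numbered embryos ran from -0.11 to 0.32, so the numbers were not taken as pairs.

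The members and gene lists were chosen with earlier results of these data known. Named genes were the 10 members, Pou5f1 and Sox2, the 3 highest and 3 lowest called genes of the wider list in each ICM KO comparison, tested genes within 150 kb of Gdf3, and the 3 genes most correlated with Gdf3 over group means among genes of at least 20 CPM in 1 group (predicted genes passed over); the result of that last rule is not reported here. The other wider-list genes called and the morula gene Bambi were named after their values were seen. RefSeq promoter windows are of GRCm38.p6.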

Additional observations from a re-analysis of the deposited data

Results flagged for a closer look

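In 14 of 101 sets of 1 gene in 1 group with at least 10 UMIs, the highest or lowest embryo stood further from the others than Dixon's limit at 95%. Chance flags about 1 set in 20 when values are normally spread. CPM of scarce genes with many zeros are not, so the 14 flags are not read as an excess. For Gdf3 these were Sox2 Ctrl morula 5 (25.0 CPM), Sox2 MWT early ICM 10 (89.96 CPM) and Sox2-KO early ICM 21 (41.2 CPM), each the highest of its group. For the Lefty genes they were Oct4 MWT late ICM 11 with 26.5 CPM of Lefty1 and 31.5 CPM of Lefty2, and Sox2 Ctrl late ICM 2-4 with 12.9 CPM of Lefty1. Tdgf1 was lowest, at 165 CPM, in Oct4 MWT late ICM 20 and highest, at 93.8 CPM, in Sox2 Ctrl morula 12. Smad7 was highest in Oct4 MWT late ICM 11 (61.3 CPM), the embryo that also held most Lefty UMIs, and in Sox2-KO early ICM 11 (81.6 CPM). Acvr2b was highest in Oct4 Ctrl morula 19 (27.4 CPM) and lowest in Oct4-KO morula 6 (2.11 CPM). Furin was highest in Sox2-KO early ICM 10 (114 CPM) and Pcsk6 in Sox2-KO early ICM 1 (206 CPM).

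In 9 cases a KO effect differed between stages or lines by the edgeR test of the interaction. Between early ICM and morula the Oct4-KO effect differed by -1.77 for Pcsk6 and -5.001 for Tdgf1 on the log2 scale, and the Sox2-KO effect by -1.94 for Gdf3. The Oct4-KO effect minus the Sox2-KO effect was -4.43 for Gdf3, -2.92 for Tdgf1 and -1.71 for Pcsk6 in early ICMs, and -4.73, -4.27 and -1.38 in late ICMs. The standard errors of the Gdf3 differences with Oct4-KO rest on KO groups with 3 and 6 UMIs.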

How the results depend on the processing

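Of the 10 genes' KO calls, Gdf3 kept its call in Oct4-KO and Sox2-KO ICMs, and Tdgf1 in Oct4-KO ICMs and Sox2-KO late ICMs, under every alternative that could be fitted. Pcsk6 in Oct4-KO early ICMs lost its call only among same-numbered embryos (-0.99). The single reversal was Smad7 in Sox2-KO early ICMs, -0.028 against MWT. Counts of members called moved as follows. Among same-numbered embryos only, the Oct4-KO count became 0 in morulae and 2 in early ICMs. Limma on rlog values and MWT in place of Ctrl each left 1 in Sox2-KO early ICMs. With no filter the count was 4 in Sox2-KO late ICMs and 2 from early to late Ctrl ICMs of either line; with no fold minimum it was 2 (Oct4) and 1 (Sox2) for that step, and 1 for Sox2 when thinned. DESeq2 called 1 for the late against early Oct4-KO effect and 2 for the early ICM against morula Sox2-KO effect, which was 0 when thinned. For Oct4 MWT late ICMs the count was 0 when thinned, on rlog values and with DESeq2, and 0 to 1 with 1 embryo left out. For Sox2 MWT early ICMs it was 1 on rlog values and 1 to 2 with 1 embryo left out. For the wider list in Oct4-KO morulae the count was 0 thinned, 2 with only the compared groups, 2 with the replicate block and 3 against MWT; it was 17 in Oct4-KO late ICMs with no fold minimum and 3 in Sox2-KO late ICMs among same-numbered embryos. The causes of these moves were not tested, beyond the fewer embryos or other genes that a setting brings.

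The replicate block on shared embryo numbers left 1, 3, 4 and 2 members called (Oct4 morula, Oct4 early, Sox2 early and Sox2 late). The 1 in Oct4-KO morulae was Smad7 (1.16, adjusted p = 0.00171), and the fourth in Sox2-KO early ICMs was Furin (1.19, adjusted p = 0.00992, both edgeR); neither was called without the block. Gdf3 in Oct4-KO morulae (-4.81, adjusted p = 0.244) and Smad7 in Oct4-KO early ICMs (0.95, adjusted p = 0.189, both edgeR) were not called under it. Oct4 late ICMs and Sox2 morulae share fewer than 2 numbers and could not be fitted. At this depth a gene with 0 UMIs in 8 embryos could still reach about 0.463 CPM (Sox2-KO late ICMs), which limits Nodal and Lefty2 there.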
